A study of Mus musculus with 3 samples.

Results

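Interferon-stimulated genes are the antiviral and antigen-presenting genes that cells switch on after contact with interferon. The 40 genes described here were chosen by name and read from the probe sets annotated to 1 of those symbols alone. In all, 59 of the 45101 probe sets of the array met this rule, and they covered 38 of the 40 genes. Isg15, a ubiquitin-like protein, and Ifi44 had no probe set of their own and have no value here. All 38 measured genes passed the filter on dim probe sets and stand among the 12725 genes tested.

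The samples were follicular regulatory T (Tfr) cells, Foxp3-expressing T cells that restrain the germinal centre reaction, sorted from spleens of C57BL/6 mice on day 8 after OVA immunization. The Rptor-null group was 2 pools of 8 mice each, carrying CD4-Cre and floxed Rptor alleles, and the WT group was 1 pool of 4 wild-type mice, with 1 Affymetrix array per pool. Rptor encodes raptor, the subunit that defines the kinase complex mTORC1, and CD4-Cre acts in T lineage cells as a whole and not in Tfr cells alone. Whether the WT mice carried Cre was not given in the labels. Set against each other, the pools ask what loss of raptor does to transcript levels in Tfr cells. The cells were lineage-negative and sorted by CD4, CD44, GITR, CD25 and CXCR5, and the labels call the Rptor-null pools biological replicates.

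Type I interferons bind the receptor chains IFNAR1 and IFNAR2, and the kinases JAK1 and TYK2 then start a signal through STAT2 and IRF9, which act in a complex that binds the interferon-stimulated response element (ISRE) in promoters. Interferon-gamma uses other receptor chains and acts mainly through the gamma-activated site (GAS). In T cells a low tonic level of such transcripts is common, and it rises strongly with infection or immunization.

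The values below are probe-set intensities on a linear scale. With 1 WT array there is no replicate error for WT, and errors given with Rptor-null means are SDs of 2 arrays. Differences are Rptor-null minus WT on the log2(intensity + 16) scale, which understates the change of dim genes, and folds are on the same scale. Each difference was tested with limma, and p-values were adjusted over all 12725 genes by the Benjamini-Hochberg method, with a threshold of 0.05. Since only the Rptor-null pools were repeated, the p-values assume that WT varies as they do. Where a gene had several kept probe sets, the one brightest on average was used. In pooled cells, fewer cells of a type and less RNA per cell cannot be told apart.

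Several facts of the arrays bear on all values. Rptor read 353 and 412 in Rptor-null pools and 365 in the WT pool (log2 difference 0.059, SE 0.14, adjusted p = 0.824), and whether its probes lie in the floxed exons was not given, so this value does not check the labels. Gapdh had a 3' to 5' signal ratio of 1.94 and 2.58 in Rptor-null RNA and 1.11 in WT RNA. The 13 Tfr and T cell markers were all measured, with a summed intensity of 29606 and 28866 in Rptor-null pools and 46770 in the WT pool, and 7 of them fell. Among them Cxcr5 read 374 and 392 against 713 (adjusted p = 0.0062) and Foxp3 587 and 423 against 752 (adjusted p = 0.0789). Macrophage and monocyte markers were higher in 8 of 11 cases, with sums of 47373 and 53422 in Rptor-null pools and 34155 in the WT pool. The plasmacytoid dendritic cell list, of a cell type known for interferon output, had 5 of 7 markers above WT in both arrays without passing the test (median log2 difference 0.24) and 1 that fell. That was Pacsin1, at 500.6 and 495 in Rptor-null pools and 837 in the WT pool, and the list summed to 1344 and 1472 against 1638. Of 5 basophil and mast cell markers all were above WT in both arrays and 3 rose, Ms4a2 by 2.99-fold and Fcer1a by 2.38-fold, with list sums of 1430.4 and 1619.9 in Rptor-null pools and 833 in the WT pool. The NK and innate lymphoid list had 4 of 7 markers above WT in both arrays and 3 below. Of these 7, 2 rose, Klra8 by 2.27-fold and Eomes by 1.41-fold, and 0 fell. The list summed to 21231 and 23563 in Rptor-null pools and 19236 in the WT pool. Over all 12725 genes tested 11.1% fell and 3.93% rose, and both arrays were below WT for 48.7% and above for 32.8%. The part of these facts and cell types in the results below was not tested.

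Interferon is known to act through short sequences in promoters. RefSeq promoter sequences (build GRCm38.p6, 250 bases before to 50 after each gene start) were at hand for 30 of the 40 genes, those for Dhx58, Iigp1, Mx1, Mx2, Oas2, Parp14, Parp9, Rtp4, Usp18 and Zbp1 not being among them. The ISRE core was searched on both strands as GAAA repeated after any 2 bases, and the GAS core as TTCNNNGAA, which reads the same on both strands; overlapping matches were counted. The ISRE core was present in 16 of the 30 promoters (53.3%), against 3.99% of the 27025 genes in the promoter table, and the GAS core in 7 of 30 (23.3%) against 9.55%, while 11 of the 30 held neither. The windows shown are those of genes with an ISRE core before the start that fell in the Rptor-null pools, followed by a paralogue each of Gbp3 and Oas1a that did not pass the test. Each is printed 5′ to 3′ on the gene's strand, with the ISRE core in capitals.
Ifit1 (chr19:34640769-34640828, plus strand): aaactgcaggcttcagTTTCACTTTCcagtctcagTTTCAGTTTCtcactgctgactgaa
Ifit3 (chr19:34583364-34583423, plus strand): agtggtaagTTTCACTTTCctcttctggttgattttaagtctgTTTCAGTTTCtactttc
Oas1a (chr5:120907526-120907585, minus strand): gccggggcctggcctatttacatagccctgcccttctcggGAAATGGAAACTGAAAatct
Bst2 (chr8:71537563-71537622, minus strand): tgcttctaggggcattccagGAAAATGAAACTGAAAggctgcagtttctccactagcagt
Gbp3 (chr3:142559974-142560033, plus strand): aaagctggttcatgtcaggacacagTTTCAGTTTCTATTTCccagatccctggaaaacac
Igtp (chr11:58199496-58199555, plus strand): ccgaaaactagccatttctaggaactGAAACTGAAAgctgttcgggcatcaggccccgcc
Irgm1 (chr11:48871421-48871480, minus strand): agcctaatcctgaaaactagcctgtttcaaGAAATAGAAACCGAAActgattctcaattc
Gbp2 (chr3:142620573-142620632, plus strand): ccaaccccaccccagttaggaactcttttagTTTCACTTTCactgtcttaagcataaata
Oas3 (chr5:120777700-120777759, minus strand): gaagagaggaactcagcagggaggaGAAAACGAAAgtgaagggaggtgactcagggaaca

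In Oas1a, Bst2, Gbp3 and Irgm1 a pair of overlapping cores forms a single run, while Ifit1 and Ifit3 hold a pair of separate cores. Igtp has 1 core, with a GAS core a few bases before it, and Bst2 has a GAS core that overlaps its first ISRE core. Gbp2 and Oas3, the paralogues, have 1 core each. Of the 12 promoters of genes that fell, 7 held the ISRE core, and so did 7 of the 15 of genes that did not pass the test. The GAS core was found in 6 of those 12 and in 0 of those 15, against 9.55% of all genes in the promoter table. It was also present in Ifitm3, the gene that rose. Of those 6 genes, Ifit2, Ifi35 and Igtp lost their calls after quantile normalization and without a variance trend. These matches are descriptions of sequence and say nothing of which factor was bound in these cells.

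**Figure D1:**
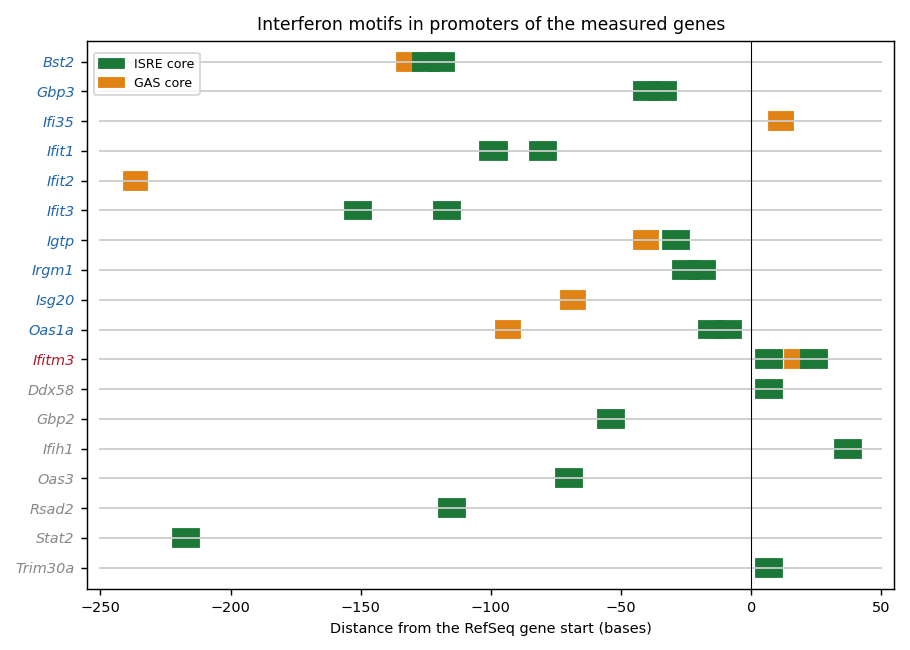
Position of ISRE cores (green) and GAS cores (orange) in the promoters of measured interferon-stimulated genes with a match, in bases from the RefSeq gene start. Gene names are blue for genes that fell in Rptor-null pools, red for the gene that rose and grey for those not past the test. Genes with more than 1 listed promoter are drawn with the first that holds a match.

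Interferon-stimulated genes were mostly lower in Rptor-null than in WT cells. Of the 38 measured genes 17 fell, 1 rose and 20 did not pass the test. Among all genes tested 11.1% fell and 3.93% rose, and 15.0% passed in either direction. Both Rptor-null arrays were below WT for 35 of the 38 genes, against 48.7% of all genes tested. Both were above WT for 2 genes, Ifitm3 and Stat2, against 32.8% of all genes, and Irf9 was split. The median log2 difference was -0.38 over the 38 genes, against -0.059 over all genes tested, and the falls that passed were between 1.30-fold and 2.49-fold.

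The shift of bright genes on these arrays has to stand beside that median. Bins of 2545 genes by brightness had medians of -0.15 in the second brightest and -0.12 in the brightest, and these bins held 10 and 22 of the 38 genes, whose own medians there were -0.55 and -0.32. Both arrays were below WT for 63.4% and 60.1% of all genes in these bins, and 16.9% and 22.0% of all genes in them fell. Quantile normalization, which gives every array the same distribution of values, left 9 genes lower and 1 higher, with a median of -0.29. It also changed the calls over all genes to 695 lower and 524 higher, against 1409 and 500. Without a mean-variance trend 9 genes were lower and 0 higher, by limma, and the calls over all genes were 770 lower and 300 higher. Ifitm3 then had an adjusted p of 0.101 and an unchanged difference.

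**Figure D2:**
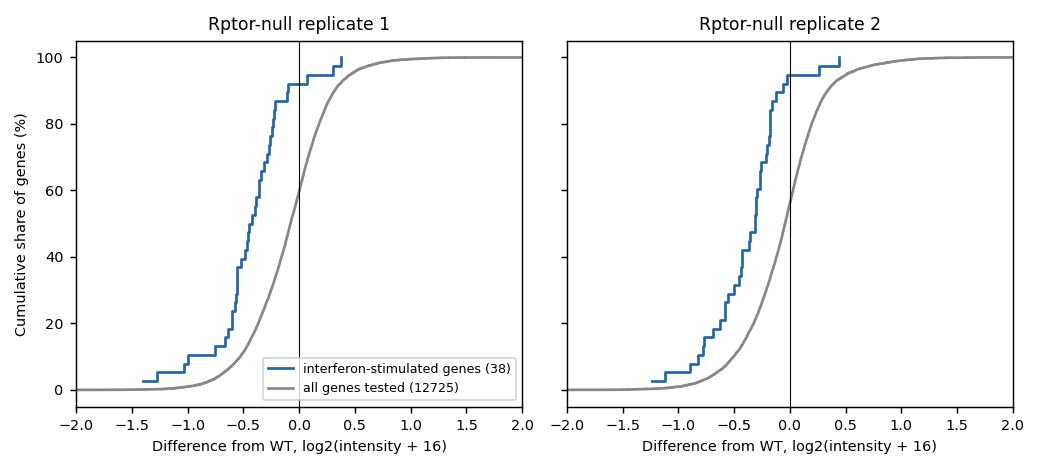
Cumulative share of genes (y axis, percent) by difference from WT on the log2(intensity + 16) scale (x axis), for each Rptor-null array. The curve of the 38 interferon-stimulated genes (blue) lies left of that of all 12725 genes tested (grey) on both arrays, with medians of -0.44 on replicate 1 and -0.31 on replicate 2, against -0.079 and -0.044.

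The conjugation of ISG15 is reversed by Usp18, a protease that also restrains the type I interferon receptor. Usp18 read 484 and 543 in the Rptor-null pools, against 1196 in the WT pool. Both Rptor-null values were under the WT value by more than they differed from each other, a 2.29-fold fall (log2 difference -1.20, SE 0.12, adjusted p = 0.00382). Its call held under each of the 10 alternative settings that gave a test with 1 value per gene. It was 1 of 2 members at least 2-fold lower in both arrays, a rule that 0.582% of all genes met.

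The other was Isg20, an exonuclease that degrades single-stranded RNA. It read 437 and 491 in the Rptor-null pools and 1177 in the WT pool, 2.49-fold lower (log2 difference -1.32, SE 0.12, adjusted p = 0.00314), the largest fall among the 38. Its call also held in all 10 settings. Counting falls of at least 1.5-fold in both arrays gave 7 of the 38 genes, against 5.12% of all genes, and the other 5 were Oas1a, Ifit1, Ifit3, Rtp4 and Bst2.

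Members of the IFIT family bind viral RNA and block its translation, and all 3 measured fell, beside 11.1% of all genes. Ifit1 read 574 and 687 in Rptor-null pools and 1190 in the WT pool (1.87-fold lower, log2 difference -0.91, SE 0.13, adjusted p = 0.0073). Ifit3 read 468 and 424 against 801 (1.77-fold lower, SE 0.12, adjusted p = 0.00749). Ifit2 stood nearer to WT, with 749 and 728 in Rptor-null pools and 986 in the WT pool (1.33-fold lower, adjusted p = 0.0426). The calls of Ifit1 and Ifit3 held in all 10 settings and that of Ifit2 in 7. Mouse Ifit3 has a close copy, Ifit3b, whose transcripts may add to its signal.

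The OAS family makes the short adenylate chains that activate the nuclease RNase L. Of its 5 measured members 1 fell, beside 11.1% of all genes. Oas1a read 1336 and 1511 in Rptor-null pools and 2688 in the WT pool. Its fall was 1.88-fold (log2 difference -0.91, SE 0.11, adjusted p = 0.00441), and related Oas1 genes may add to its signal. Oasl1 read 166 and 198 in the Rptor-null pools against 260 in the WT pool (adjusted p = 0.0945). Oasl2 read 133 and 167 against 209.8 (adjusted p = 0.140), and Oas3 171 and 226 against 259 (adjusted p = 0.231). Oas2 was the nearest to WT, with 556 and 643 against 672 (log2 difference -0.16, SE 0.13, adjusted p = 0.454). All 5 were below WT in both arrays, against 48.7% of all genes, and in all 5 the second Rptor-null array read higher. In Oas2 and Oas3 the Rptor-null arrays lay farther from each other than the second lay from WT, while in Oasl1 and Oasl2 they lay closer to each other.

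**Figure D3:**
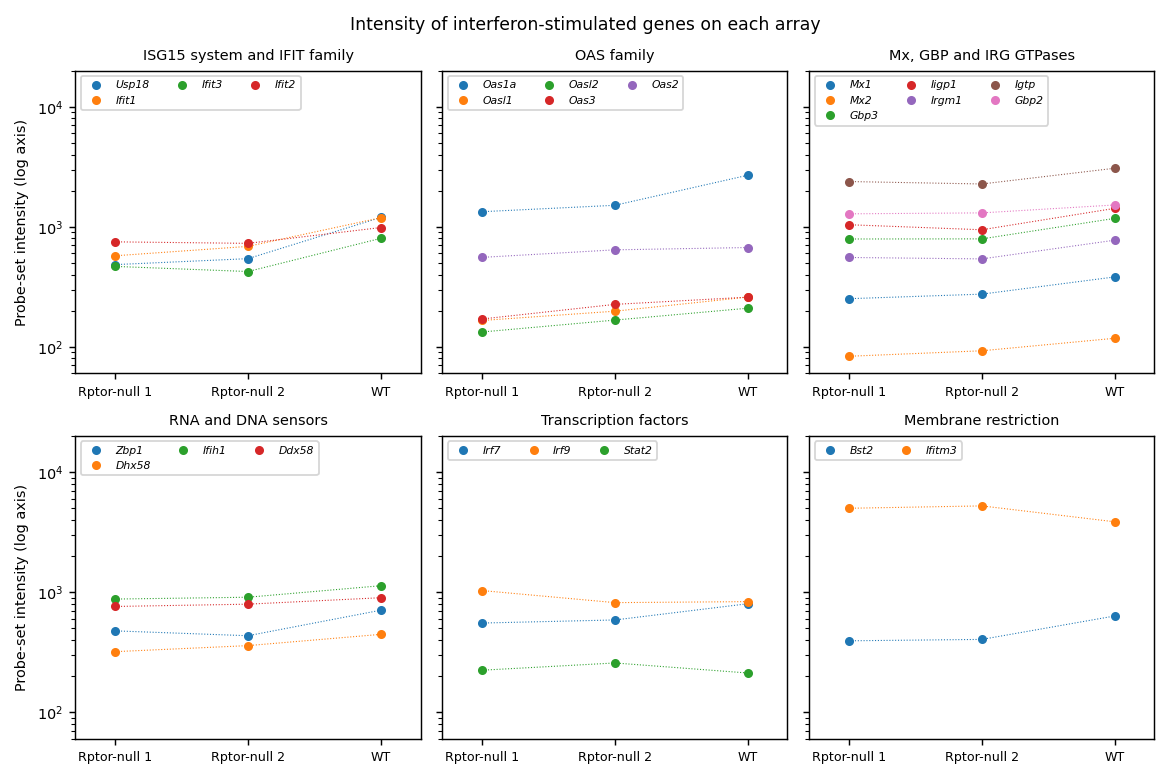
Probe-set intensity (log axis) of interferon-stimulated genes on each of the 3 arrays (Rptor-null replicates 1 and 2, then WT). Each point is 1 array, and dotted lines join the points of a gene. Among the genes drawn, which leave out Isg20 and the other effectors, Usp18, Oas1a, Ifit1 and Ifit3 show the widest steps between the Rptor-null arrays and WT, while Ifitm3 runs the other way.

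The sensors that detect foreign nucleic acid were all below WT in both arrays, against 48.7% of all genes. Of the 4, 1 fell, beside 11.1% of all genes. In the second brightest and brightest bins 16.9% and 22.0% of all genes fell. Zbp1, which binds nucleic acid in the Z conformation and can start cell death, read 475 and 433 in Rptor-null pools and 706 in the WT pool (1.54-fold lower, adjusted p = 0.0178). Its other probe set read 396 and 407 against 465, a smaller log2 difference of -0.20. The Zbp1 call held with the mean of probe sets and was lost after quantile normalization. The helicase Dhx58, also called LGP2, read 319 and 358 against 444 (adjusted p = 0.111). Ifih1, the long double-stranded RNA sensor MDA5, read 875 and 906 in Rptor-null pools and 1130 in the WT pool (adjusted p = 0.0699). Ddx58, the sensor RIG-I, read 759 and 793 against 898 (adjusted p = 0.253). These 3 helicases did not pass the test, and Ifih1 passed after median centring.

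The dynamin-like Mx GTPases gave 1 fall among 2 measured, beside 11.1% of all genes. Mx1, which blocks influenza virus in mice with an intact gene, read 252 and 275 in Rptor-null pools and 382 in the WT pool (1.43-fold lower, adjusted p = 0.0488). Mx2 read 83.5 and 92.7 against 118 (adjusted p = 0.183), and both Rptor-null arrays lay below WT for each of the pair. The Mx1 call held in 7 of the 10 settings. C57BL/6 mice are known to carry a defective Mx1 gene, so its transcript level does not stand for antiviral function.

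Guanylate-binding proteins and immunity-related GTPases attack the vacuoles in which microbes live, and 4 of 5 measured fell, beside 11.1% of all genes. Gbp3 read 791 and 793 in Rptor-null pools and 1175 in the WT pool (1.47-fold lower, log2 difference -0.56, SE 0.10, adjusted p = 0.0142). Iigp1 read 1040.2 and 945 against 1424 (1.43-fold lower, adjusted p = 0.0214). Irgm1, a regulatory member of the IRG group, read 555 and 540.2 in the Rptor-null pools and 773 in the WT pool (1.40-fold lower, adjusted p = 0.0292). Igtp, also regulatory, read 2382 and 2274 against 3073 (1.32-fold lower, adjusted p = 0.0268). Gbp2 read 1283 and 1306 against 1520.1 and did not pass (adjusted p = 0.163). All 5 were below WT in both Rptor-null arrays, against 48.7% of all genes. By limma, however, 1 of the 5 was lower after quantile normalization (Gbp3) and 0 without a variance trend.

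Of the pair of membrane proteins that restrict viruses, 1 fell and 1 rose, beside 11.1% and 3.93% of all genes. Bst2, or tetherin, which holds budding virions at the cell surface, read 393 and 404 in the Rptor-null pools and 632 in the WT pool (1.57-fold lower, log2 difference -0.65, SE 0.12, adjusted p = 0.0144). Ifitm3, which blocks virus entry from endosomes, read 4994 and 5225 in Rptor-null pools and 3854 in the WT pool. It was the only member that rose, 1.32-fold (log2 difference 0.41, SE 0.084, adjusted p = 0.0205), a call that was lost without a variance trend. Its RefSeq window holds 2 ISRE cores, both after the gene start.

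Relatives of Ifitm3 were looked up after its value had been seen. Ifitm1 read 2702 and 2789 in Rptor-null pools and 1049 in the WT pool, 2.59-fold higher (log2 difference 1.37, SE 0.092, adjusted p = 0.0017). Ifitm6 read 1972 and 2169 against 1364 (1.51-fold higher, adjusted p = 0.0109), and Ifitm2 1008 in each Rptor-null pool against 685 (1.46-fold higher, adjusted p = 0.0153). Without a variance trend Ifitm2 and Ifitm6 lost their calls, as Ifitm3 did, and Ifitm1 kept its own. These 3 and Ifitm3 all stood above WT in both Rptor-null arrays, opposite to most interferon-stimulated genes. Ifitm5 read 59.6 and 46.7 in Rptor-null pools and 52.7 in the WT pool (adjusted p = 0.995), and Ifitm10 91.9 and 139 against 147 (adjusted p = 0.381). Ifitm7 was below the filter. The macrophage and monocyte markers, with 8 of 11 higher and none of the 11 lower, and the basophil and mast cell markers, with 3 of 5 higher, stood on the same side of WT, and their part in the rise of the family was not tested.

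**Figure D4:**
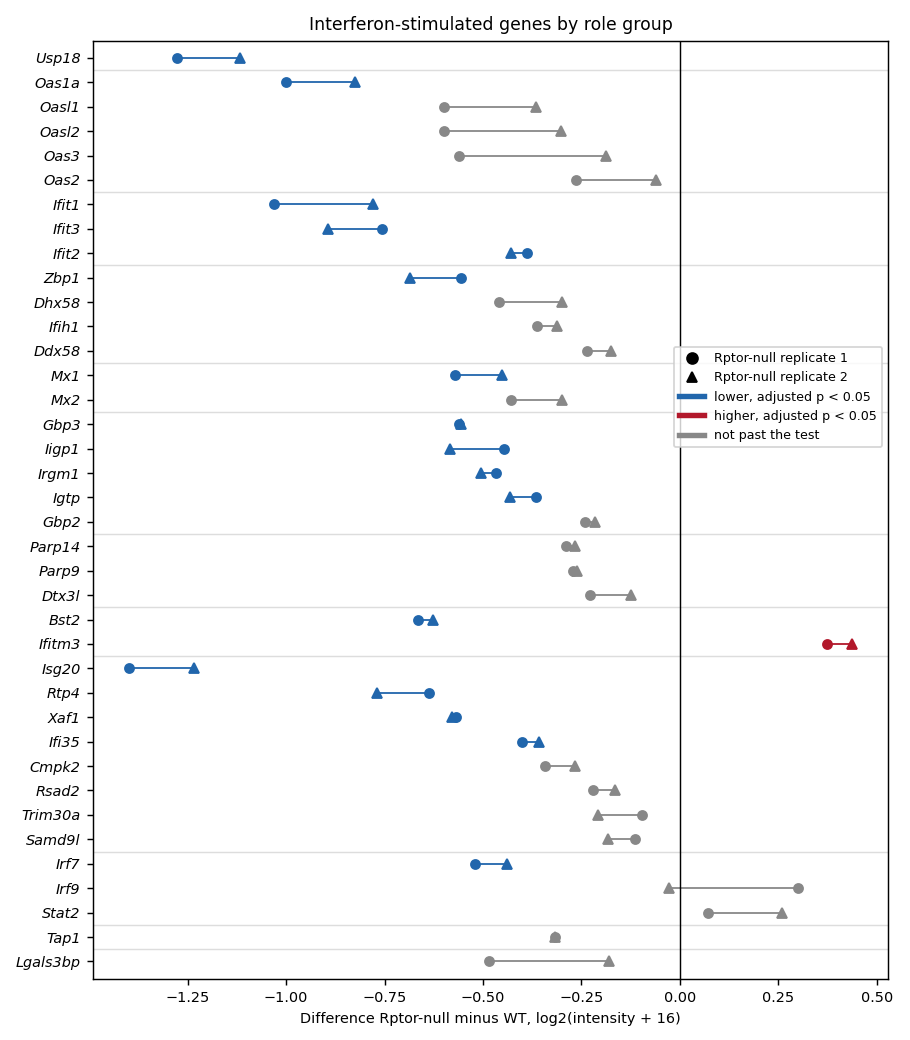
Difference from WT on the log2(intensity + 16) scale for the 38 measured genes, ordered by role group (grey rules separate groups), with a circle for Rptor-null replicate 1 and a triangle for replicate 2. Isg20, Usp18, Oas1a and Ifit1 lie farthest to the left, and Ifitm3 is the only gene past the test on the right.

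Among the other effectors all 8 measured were below WT in both arrays, against 48.7% of all genes, and 4 fell, beside 11.1%. Besides Isg20, these were Rtp4, a chaperone of receptors with antiviral activity, at 1537 and 1402 in Rptor-null pools against 2400 in the WT pool (1.63-fold lower, adjusted p = 0.00688). Xaf1, a binding partner of the apoptosis inhibitor XIAP, read 880.2 and 873 against 1312 (1.49-fold lower, adjusted p = 0.0121). Ifi35 read 2474 and 2549 in Rptor-null pools and 3269 in the WT pool (1.30-fold lower, adjusted p = 0.0288), and its other probe sets gave log2 differences of -0.44 and -0.76. Xaf1 lost its call with the mean of its probe sets, of which the other read 50.8 and 46.1 in the Rptor-null pools and 53.7 in the WT pool.

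The effectors that did not pass lay close to WT. Rsad2, the antiviral radical enzyme viperin, read 1414 and 1472 in Rptor-null pools and 1651 in the WT pool (log2 difference -0.19, SE 0.097, adjusted p = 0.232). Cmpk2, a mitochondrial nucleotide kinase that lies next to Rsad2 in the genome, read 316 and 334 against 405 (adjusted p = 0.171). Samd9l, which slows translation, read 2850.1 and 2717 in the Rptor-null pools and 3084 in the WT pool (adjusted p = 0.319), and Trim30a, of the TRIM family, 1692 and 1564 against 1810.4 (adjusted p = 0.360). Each of these 4 was below WT in both Rptor-null arrays without passing the test.

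The ADP-ribosyltransferases Parp9 and Parp14 and the ubiquitin ligase Dtx3l, which pairs with Parp9, did not pass. Parp9 read 1166 and 1175 in Rptor-null pools and 1411 in the WT pool (log2 difference -0.27, SE 0.098, adjusted p = 0.117). Parp14 read 1008 and 1023 against 1234 (adjusted p = 0.112), and Dtx3l 1029 and 1109 against 1210 (adjusted p = 0.316). Tap1, which carries peptides to MHC class I, read 1373 in each Rptor-null pool and 1714 in the WT pool (log2 difference -0.32, SE 0.095, adjusted p = 0.0649), and it passed with the stricter filter and after median centring. Lgals3bp, a secreted glycoprotein, read 942 and 1167 against 1325 (adjusted p = 0.158), with a gap between the Rptor-null arrays larger than that from the second to WT.

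The transcription factors of the response did not move together. Irf7, which amplifies type I interferon production, read 552 and 586 in the Rptor-null pools and 800 in the WT pool, 1.39-fold lower (log2 difference -0.48, SE 0.12, adjusted p = 0.0316). Stat2 read 224 and 257 against 212 (log2 difference 0.17, SE 0.15, adjusted p = 0.532). A second Stat2 probe set went the other way, with 81.5 and 77.2 in Rptor-null pools and 95.0 in the WT pool. Irf9 read 1029.6 and 817 in the Rptor-null pools and 833 in the WT pool, so that WT lay between them (adjusted p = 0.593). Neither Stat2 nor Irf9 was lower by the test.

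Probe sets of the same gene gave a partial check. Several kept probe sets were at hand for 15 members, and in 10 of these each of them lay below WT in both arrays. The exceptions were Stat2, Rsad2, Ddx58, Parp14 and Dtx3l, none of which passed the test. In all, 49 of 56 kept probe sets of the 38 genes were below WT in both arrays, those used above for the genes among them. Of all genes tested, with 1 probe set each, 48.7% were below WT in both arrays. That share was 63.4% in the second brightest bin and 60.1% in the brightest.

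Upstream genes of the pathway passed the test about as often as genes at large. Of 18 tested genes for interferons, their receptors and JAK-STAT signalling, 1 fell and 1 rose, beside 11.1% and 3.93% of all genes. Ifnar2, a chain of the type I receptor and the one that Usp18 binds, read 611 and 607 in Rptor-null pools and 920 in the WT pool (log2 difference -0.58, SE 0.11, adjusted p = 0.0147). Another of its 3 kept probe sets stood at 0.046 on the log2 scale, and the call was lost with their mean. Ifngr1, the ligand-binding chain of the interferon-gamma receptor, read 1573 and 1634 in the Rptor-null pools and 1005 in the WT pool (1.59-fold higher, log2 difference 0.66, SE 0.098, adjusted p = 0.00725).

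The other receptor chains, Ifnar1 and Ifngr2, read 311 and 309 against 339 (adjusted p = 0.584) and 203 and 221 against 161 (adjusted p = 0.157), the Rptor-null pools being given before the WT pool. The mean of its probe sets turned Ifnar1 to 0.037 on the log2 scale. Ifng itself, the interferon that T and NK cells make, read 1130 and 1188 in Rptor-null pools and 1452 in the WT pool (log2 difference -0.32, SE 0.10, adjusted p = 0.0733). Socs1, a feedback inhibitor of JAK kinases, read 128 and 145 against 198 (adjusted p = 0.0858). The type I genes Ifnb1 and Ifna4 were below the filter, at 24.7 and 27.3 against 27.3 and at 18.8 and 22.3 against 21.5. Ifna1 and Ifna2 were above WT in both Rptor-null arrays without passing. They read 110.6 and 107.7 against 87.0 (adjusted p = 0.284) and 40.8 and 40.9 against 34.9 (adjusted p = 0.520), the latter close to the filter level of 34.8.

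In the IRF family 2 of 8 fell, Irf7 and Irf4, a factor induced by antigen receptor signals, with 339 and 388 in Rptor-null pools and 586 in the WT pool (1.59-fold lower, adjusted p = 0.0193). Both calls were lost after quantile normalization, and that of Irf7 also without a variance trend. Irf1, a factor central to interferon-gamma responses, read 2401 and 2276 against 2348 and was split around WT (adjusted p = 0.971). Irf3 read 991 and 1077 in the Rptor-null pools and 1310 in the WT pool (adjusted p = 0.076). Irf8 and Irf5, both prominent in myeloid cells, read 1207 and 1549 against 1003 (adjusted p = 0.0929) and 487 and 547 against 414 (adjusted p = 0.164). Among 15 genes of nucleic acid sensing 2 fell and 0 rose by limma, beside 11.1% and 3.93% of all genes. They were Ikbke, a kinase that activates IRF proteins, at 916 and 927 against 1250 (adjusted p = 0.0299), and Rnaseh2b at 487 in each Rptor-null pool against 684 (adjusted p = 0.0328), and both calls were lost after quantile normalization and without a variance trend. Tlr7, a receptor for single-stranded RNA, and its chaperone Unc93b1 were above WT in both arrays without passing, at 324 and 386 against 259 and at 689.6 and 1014 against 550 (adjusted p = 0.108 and 0.0982).

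Interferon-stimulated genes outside the 40 were read from the same 3 arrays. Of 39 tested, 11 fell and 2 rose, beside 11.1% and 3.93% of all genes. Both arrays were below WT for 30 of them, against 48.7% of all genes, and the median log2 difference was -0.32. The count of falls was 7 after quantile normalization, 7 without a variance trend and 17 after median centring. Mitd1 read 334 and 383 in Rptor-null pools and 745 in the WT pool (2.04-fold lower, adjusted p = 0.00519). Ifi27 read 955 and 985 against 1882 (1.93-fold lower, adjusted p = 0.00383) and its relative Ifi27l2a 5879 and 5727 against 9672 (1.67-fold lower, adjusted p = 0.00383). The 2 that rose were Ifitm1 and Ifitm2.

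Genes tied to interferon-gamma were mixed, with a median of -0.16. Of 14 tested, 3 were lower and 0 higher, beside 11.1% and 3.93% of all genes. Cxcl10, a chemokine that draws CXCR3-bearing T cells, read 503 and 475 in the Rptor-null pools and 895 in the WT pool (1.80-fold lower, adjusted p = 0.00576). The GTPases Ifi47 and Gbp6 were 1.36-fold lower each (adjusted p = 0.0168 and 0.0258). Without a variance trend both lost their calls, leaving 1 of the 14 lower, and Gbp6 also lost its call after quantile normalization and with the mean of probe sets. In all, 8 of the 14 genes were below WT in both arrays, 3 above and 3 split. Among all genes 48.7% were below and 32.8% above.

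Antigen presentation by MHC class I, which both kinds of interferon raise, was lower throughout its list, with a median of -0.45. All 14 tested genes, Tap1 among them, were below WT in both arrays, against 48.7% of all genes. By limma 8 fell and 0 rose, beside 11.1% and 3.93% of all genes. Without a variance trend 5 were lower. With the mean of probe sets 6 were lower and the median was -0.32. Without probe sets that can match several transcripts 6 of 13 were lower, also with a median of -0.32. Psmb9, an immunoproteasome subunit, read 1832 and 1691 in Rptor-null pools and 3185 in the WT pool (1.80-fold lower, adjusted p = 0.0042). Psmb8, another, read 2958 and 2867 against 4740 (1.62-fold lower, adjusted p = 0.00441), and its other probe set stood at 0.0083 on the log2 scale, so that the call was lost with their mean. Psme1, a subunit of the proteasome activator, read 3583 and 3637 in the Rptor-null pools and 5585 in the WT pool (1.54-fold lower, adjusted p = 0.00534). Tap2, the partner of Tap1 in the peptide transporter, read 535 and 520 against 824 (1.55-fold lower, adjusted p = 0.0126).

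**Figure D5:**
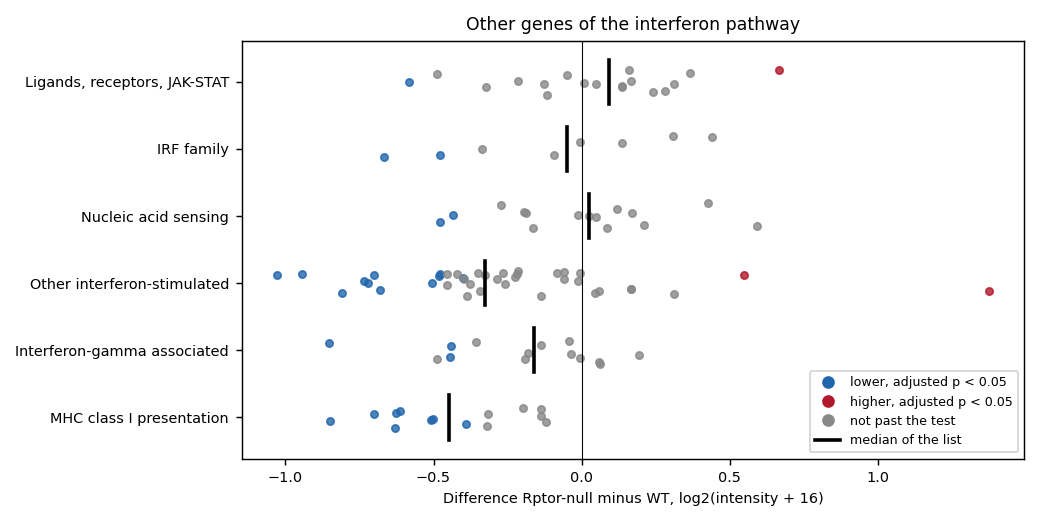
Difference Rptor-null minus WT on the log2(intensity + 16) scale for genes of 6 lists of the interferon pathway. Each point is a gene, blue or red where it passed the test and grey where it did not, and black bars mark list medians, from -0.45 for MHC class I presentation to 0.091 for ligands, receptors and JAK-STAT genes.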

How the data were processed

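Tfr cells of 2 Rptor-null pools and 1 WT pool were profiled on single-colour arrays. The authors deposited 1 linear intensity per probe set and array; no source used here states how arrays were scaled to each other, though their medians lie close together. The submitters' processing notes name MAS5, without a version, and the background correction was not given in the sources used here. Array medians were 55.0 and 54.9 (Rptor-null) and 52.8 (WT). No count gives the depth of an array, so the number of arrays limits the precision, and nothing in the labels gives a batch.

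Gene symbols came from the platform annotation, in which 34945 probe sets name 1 gene, 932 several and 9160 none, beside 64 control probe sets. Intensities were converted to log2(intensity + 16), and 27022 probe sets were kept whose level, averaged over both groups, exceeded the 40th percentile (34.8 intensity units). The brightest kept probe set stood for a gene. The fit used limma 3.58.1 in R 4.3.3 (lmFit and trended eBayes, 6.46 prior and 1 residual degrees of freedom), two-sided, with Benjamini-Hochberg adjustment over 12725 genes. The fit was also run on simulated data. There WT was given the spread between the Rptor-null arrays, so the simulation cannot check that WT varies as they do.

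The 40 genes, the pathway and marker lists and the alternatives were chosen with earlier results of these data known. Values on every array were planned for 10 genes, for up to 2 members of each role group that lay farthest from WT on the nearer of their Rptor-null arrays, and for members above WT in both arrays. The remaining members were given values as well. Of each pathway list up to 4 genes were named by the same measure, beside chosen receptor and regulator genes. List symbols were matched through RefSeq names and gene IDs. The alternatives were 2 other pseudocounts, 2 filters, 2 scalings, 3 treatments of probe sets, 2 variance priors and leaving out each Rptor-null array.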

Additional observations from a re-analysis of the deposited data

How the results depend on the processing

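No paired analysis was possible because WT has 1 array, so the groups share fewer than 2 replicate numbers. Among the 38 measured genes no call changed with a pseudocount of 1 or 64, without probe sets that can match several transcripts, or with a robust prior. Without the filter Ifit2 and Mx1 lost their calls, with the 60th percentile filter Tap1 gained one, after median centring Ifih1 and Tap1 did, and with the mean of probe sets Xaf1 lost its call. Quantile normalization left 9 genes lower, with a median of -0.289, and ended the calls of Ifit2, Mx1, Irf7, Ifi35, Zbp1, Igtp, Irgm1 and Iigp1. With every probe set fitted by itself 13 of 56 were lower and 1 higher, and the probe sets that stand for Ifit2, Mx1, Irf7, Ifi35, Igtp and Irgm1 no longer passed. Without a variance trend 9 were lower and 0 higher, with Gbp3 and Ifitm3 losing their calls in place of Zbp1. With 1 Rptor-null array left out, which leaves no test, the median was between -0.437 and -0.315 and 8 to 9 genes were at least 1.5-fold lower. Leaving out an array, the log2 difference of Irf9 was between -0.027 and 0.301, that of Irf1 between -0.045 and 0.032 and that of Ifitm5 between -0.133 and 0.137. That of Stat2 turned to -0.027 with the mean of probe sets, and that of Ifnar1 to 0.037 there. Quantile normalization turned Irf1 to 0.087 and Ifitm5 to -0.043, and median centring turned Ifitm5 to -0.043. The median of the ligand, receptor and JAK-STAT list turned to -0.023 with every probe set and -0.049 without cross-matching probe sets, and that of the IRF family to 0.059 after quantile normalization. The median of the nucleic acid sensing list, 0.025, turned to -0.013 with the 60th percentile filter and with every probe set, -0.020 after median centring, -0.043 without cross-matching probe sets, and -0.033 and -0.021 without Rptor-null replicates 1 and 2. Outside the 38 genes, Ifng and Irf3 gained calls after median centring and Irf8 with the mean of probe sets. The cause of these changes was not tested.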
